A study of Mus musculus with 4 samples.

Results

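The genes described are 39 genes of DNA replication and S phase, chosen by name from a fixed list. Each was read on each array at the brightest probe that carries the gene's name. The list was set with earlier results of these data known. Of these 39 genes, 37 were found by name, and the array held probes for 27745 names in all. Their mRNA levels were measured in mouse embryonic fibroblasts (MEFs), connective-tissue cells grown from mid-gestation embryos, to ask which transcripts differ in cells that lack cyclin G1 or cyclin G2. One comparison set a culture from CycG1-/- mice (G1KO), whose protein-coding Ccng1 exons had been removed, against a culture from CycG1+/+ mice (WT). The other comparison set a culture labelled CycG2-/- (G2KO) against a CycG2+/+ culture, a second WT. All 4 cultures were untreated and in logarithmic growth, and the strain label of each was C57BL/6J, although the source label of the G2 pair reads C57BL/7J. Both RNAs of a comparison were hybridised together on an Agilent 2-colour array, and a second array carried the same RNAs with the dyes Cy5 and Cy3 exchanged. Each comparison thus had 1 culture per genotype on 2 arrays, so no p-value is given, and a ± value is the technical SD between the 2 arrays.

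The labels were checked at the targeted genes. Ccng1 had a log2 ratio of -6.67 ± 0.13 in G1KO over its WT. At the single probe of Ccng2 named here, the log2 ratio of the G2KO-labelled RNA over its WT was 0.28 on one array and -0.10 on the other. The sources used here do not say whether that probe lies in the deleted part of Ccng2, so the second knockout could not be checked at its own transcript, and it is called the G2KO-labelled RNA throughout. In that RNA the Ccng1 transcript was higher than in its WT by a log2 ratio of 2.67. Other differences between the cultures accompanied both comparisons. Xist, the RNA that silences an X chromosome in female cells, was higher in both knockout cultures, with log2 ratios of 7.54 (G1KO) and 7.24 (G2KO-labelled RNA). The Y-linked genes Ddx3y, Eif2s3y, Kdm5d and Uty were well above background in both WT cultures and in neither knockout culture, so the sex of the embryos and the genotype cannot be told apart. These sex-linked genes were chosen after their values were seen. The names of the scans also carry the mark PDL, unexplained in the sources used here, with 28 for the WT and 30 for the knockout of the G1KO pair and 23 for the WT of the G2KO pair.

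Fibroblast markers were well above background in all 4 cultures, 8 of 8 genes in each. Their summed signal ran from 407675 to 441791 on the arrays of the WT of the G1KO pair, from 286694 to 337251 in G1KO, from 519979 to 600274 in the WT of the G2KO pair and from 166592 to 241737 in the G2KO-labelled RNA. Mesothelium markers summed to between 168676 and 207941 in the WT of the G1KO pair and to between 24701 and 30336 in G1KO, with 5 of 5 above background in both, although Krt19 of this list was higher in G1KO by a log2 ratio of 2.90. In the G2KO pair they summed to between 1606 and 1694 in the WT and to between 3718 and 4042 in the knockout RNA, with 2 of 5 above background in each. Neural and glial markers summed to between 13259 and 14494 in the WT of the G1KO pair and to between 5922 and 6872 in G1KO, where Sox2 and Sox10 were not well above background in either. They summed to between 608 and 660 in the WT of the G2KO pair and to between 32775 and 34944 in the G2KO-labelled RNA, where Sox10 was not well above background. Smooth muscle markers summed to between 199913 and 294049 in all cultures, with Des below background in each. Epithelial markers were above background for 3 of 4 genes in both cultures of the G1KO pair, for 1 in the WT of the G2KO pair and for none in the G2KO-labelled RNA. Blood markers were well above background for 2 of 4 genes in both cultures of the G1KO pair (Csf1r and Cd68). In both cultures of the G2KO pair this held for 1 (Cd68). Of 4 endothelial markers, 1 (Kdr) was well above background in both cultures of the G1KO pair and none in the G2KO pair. The blood markers Ptprc and Itgam and the endothelial markers Pecam1, Cdh5 and Tek were not well above background in any culture. These shifts ran alongside the results on replication genes, and their part in them was not tested. In bulk RNA, fewer cells in S phase and less RNA per cell cannot be told apart.

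DNA replication begins with licensing, in which the factors Cdc6 and Cdt1 load the ring-shaped Mcm2 to Mcm7 helicase onto origins while cells are in G1. The kinase Cdc7 with its activator Dbf4, together with Mcm10 and the GINS complex, then turns the loaded helicase into a moving fork. DNA polymerase alpha with primase lays down primers, the clamp loader Rfc1 to Rfc5 closes the sliding clamp Pcna around DNA, and the polymerases delta and epsilon copy the strands. Most of these genes are transcribed in bursts at the entry into S phase under control of the E2F factors.

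E2F factors bind short sites in the promoters of such genes, and RefSeq promoter sequences (GRCm38.p6) were available for 31 of the 39 genes. The letters TTTCCCGC, TTTCGCGC, TTTGCCGC and TTTGGCGC were searched on both strands from 250 bases before to 50 bases after each start, with overlapping matches counted separately. At least 1 of them was found in 11 of the 31 genes (35.5%), against 704 of all 27025 genes in the same table (2.6%). These 11 genes were Mcm3, Mcm5, Mcm6, Mcm7, Cdc6, Cdt1, Rfc3, Pola1, Pold1, Lig1 and Uhrf1. The letters CCAAT occurred on either strand in 18 of the 31 genes (58.1%), against 41.1% of all genes. No promoter entry was used for Gmnn, Pole, Gins1, Gins2, Prim2, Dscc1, Mcm4 and Rfc2. The 250 bases before the start are printed for the genes that lead the comparisons below and for Mcm6, which held the most matches. Capitals mark the E2F-type letters. The stretches are chr17:56304063-56304312 on the plus strand for the second-listed start of Uhrf1, chr11:117826015-117826264 on the minus strand for Tk1, chrX:93632156-93632405 on the minus strand for Pola1, chr6:88898781-88899030 on the minus strand for Mcm2, and chr1:128359706-128359955 on the minus strand for Mcm6.
Uhrf1: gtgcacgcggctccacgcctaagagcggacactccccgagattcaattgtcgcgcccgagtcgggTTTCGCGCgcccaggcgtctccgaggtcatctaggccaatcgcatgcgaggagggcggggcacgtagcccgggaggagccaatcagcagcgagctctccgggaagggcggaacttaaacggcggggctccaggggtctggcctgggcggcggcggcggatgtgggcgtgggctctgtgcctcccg
Tk1: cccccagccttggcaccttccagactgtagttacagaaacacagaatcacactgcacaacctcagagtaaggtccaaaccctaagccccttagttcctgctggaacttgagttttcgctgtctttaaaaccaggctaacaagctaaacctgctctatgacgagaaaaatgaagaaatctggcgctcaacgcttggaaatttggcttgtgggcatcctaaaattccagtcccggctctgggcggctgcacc
Pola1: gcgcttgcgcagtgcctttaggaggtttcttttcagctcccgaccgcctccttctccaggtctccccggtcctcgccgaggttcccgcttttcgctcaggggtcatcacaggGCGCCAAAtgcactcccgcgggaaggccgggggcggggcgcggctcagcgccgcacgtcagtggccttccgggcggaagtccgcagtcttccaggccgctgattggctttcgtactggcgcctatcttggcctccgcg
Mcm2: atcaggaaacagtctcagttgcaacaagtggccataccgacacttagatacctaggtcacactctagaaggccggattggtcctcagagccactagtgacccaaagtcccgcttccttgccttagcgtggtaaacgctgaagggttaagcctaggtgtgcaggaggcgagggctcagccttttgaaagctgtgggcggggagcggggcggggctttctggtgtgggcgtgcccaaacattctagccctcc
Mcm6: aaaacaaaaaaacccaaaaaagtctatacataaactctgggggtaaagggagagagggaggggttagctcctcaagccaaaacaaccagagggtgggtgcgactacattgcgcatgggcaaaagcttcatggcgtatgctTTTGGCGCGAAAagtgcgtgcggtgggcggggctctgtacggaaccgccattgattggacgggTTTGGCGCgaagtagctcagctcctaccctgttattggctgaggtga
The Uhrf1 stretch held 1 match, 185 bases before the start, and the Pola1 stretch 1 match, 138 bases before it. The Mcm6 stretch held 3 matches, of which those at 110 and 106 bases before the start overlap and the last lies 47 bases before it. Neither Tk1 nor Mcm2 held any of these letters in this window.

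Replication genes were among the brighter signals of the arrays. The median brightness of the 37 genes, as the mean log2 signal of both dyes over the arrays, was 12.75, at the 89.5th percentile of all tested probes. All genes but Mcm4 were well above background in the 4 cultures on every array. Mcm4 lacked a value on 1 array of the G1KO pair, where its spot had been marked as an outlier, so 36 genes were tested in G1KO and 37 in the G2KO-labelled RNA. A gene counted as tested when its signal was well above background on both arrays in at least 1 genotype. Gins2 and Dscc1 stand on the array under older names (4833427B12Rik and 2600005O03Rik) and were found through their accessions, outside the rule. Gins2, a GINS subunit, had log2 ratios of 0.11 and 0.27 on the arrays of G1KO and of -0.06 and 0.12 on those of the G2KO-labelled RNA. Dscc1, of an alternative clamp loader, had 0.37 and 0.53 in G1KO and 0.44 and 0.56 in the G2KO-labelled RNA. Neither is counted below.

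In G1KO the replication genes lay above their WT in a broad, small shift. Of 36 tested genes, 28 were higher on both arrays and 4 lower on both arrays, while 39.8% of all 25541 tested probes were higher on both and 40.8% lower on both. The median log2 ratio of the genes was 0.31, a 1.24-fold excess, against -0.00 for all tested probes. The median was 0.26 on the array with the knockout RNA in Cy5 and 0.32 on the swapped array. Few genes moved far. Only Pola1, Tk1 and Uhrf1 passed 1.5-fold higher on each array, which is 3 of 36 genes (8.33%) against 5.04% of all tested probes, and none passed 1.5-fold lower, against 8.05%. No gene passed 2-fold in either direction, where the shares of all tested probes were 1.99% higher and 3.8% lower.

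In the G2KO-labelled RNA the shift was in the same direction, with larger individual ratios. Of 37 tested genes, 31 were higher than in the WT on both arrays and none was lower on both, against 40.7% and 42.7% of all 25431 tested probes. The median log2 ratio was 0.42, a 1.34-fold excess, against -0.01 for all tested probes, with 0.41 and 0.44 on the individual arrays. Past 1.5-fold higher on each array were 10 of 37 genes (27.0%), against 6.28% of all tested probes. With median centring in place of loess it was 0 of 37. The 10 genes were Mcm2, Gins1, Prim1, Pold1, Fen1, Lig1, Rpa3, Rrm2, Tk1 and Uhrf1. None passed 1.5-fold lower, against 8.32%. Mcm2 alone passed 2-fold higher, against 2.31% of all tested probes, and no gene passed 2-fold lower, against 4.06%.

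The background of bright probes was like that of all probes. Among tested probes at least as bright as the dimmest of the genes, a comparison chosen after seeing the data, 4.7% in G1KO and 6.77% in the G2KO-labelled RNA passed 1.5-fold higher. Higher on both arrays were 40.9% and 42.9% of these bright probes. Without loess, with each array only centred on its median, the dyes pulled the genes of an array to one side. The median log2 ratio of the genes was then 1.08 and -0.41 on the arrays of G1KO and 1.35 and -0.23 on those of the G2KO-labelled RNA, and 3 and 11 genes stayed higher on both arrays. None then passed 1.5-fold on both arrays in either comparison. The means over the dye-swapped arrays stayed above 0 for 32 of 36 and 36 of 37 genes, as many as with loess.

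**Figure D1:**
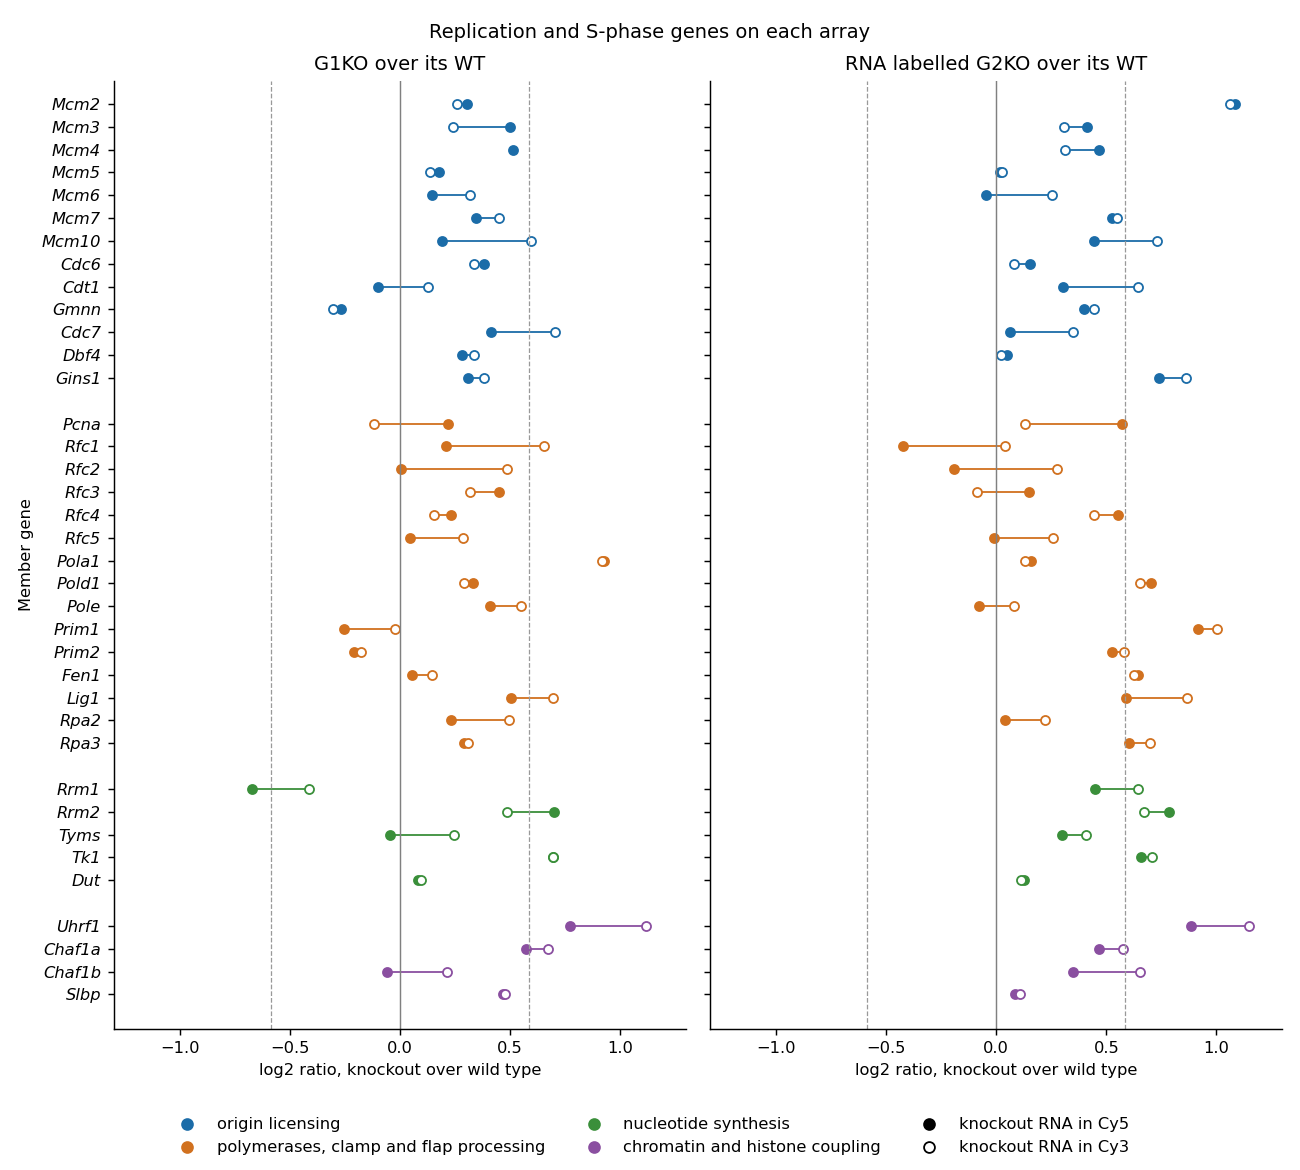
Log2 ratio of knockout over wild type (x axis) for each of the 37 genes (rows, coloured by role) in the G1KO comparison (left) and in that of the G2KO-labelled RNA (right). Filled points are the array with the knockout RNA in Cy5, open points the swapped array, a line joins both, and dashed lines mark 1.5-fold; 28 of 36 genes in G1KO and 31 of 37 in the G2KO-labelled RNA have both points above 0, and Mcm4 has a single point in G1KO.

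**Figure D2:**
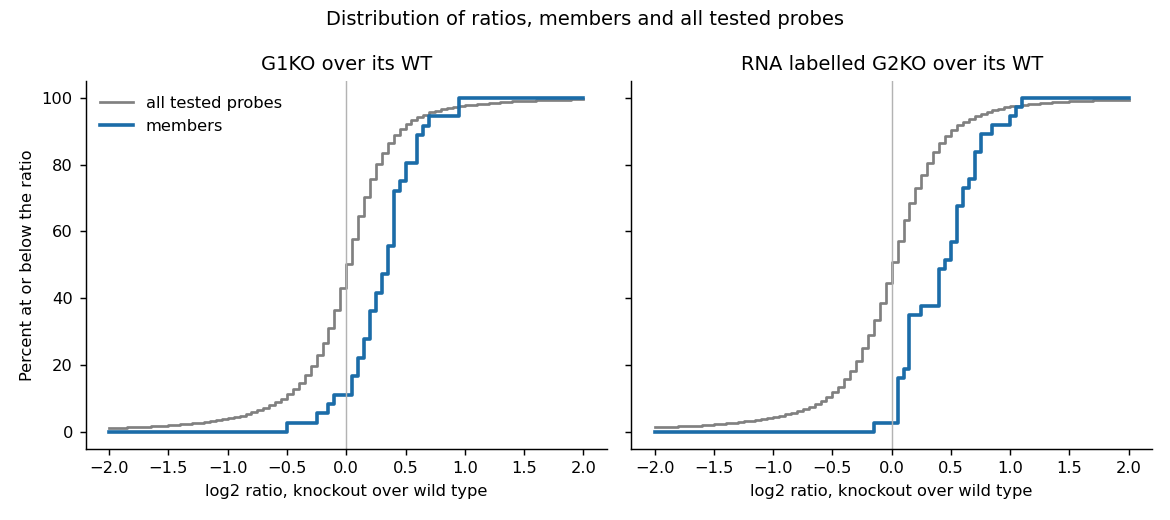
Percent of tested probes (grey) and of replication genes (blue) at or below each mean log2 ratio (x axis), for G1KO (left) and the G2KO-labelled RNA (right). The curve of the genes lies to the right of that of all probes, with medians of 0.31 and 0.42 against -0.00 and -0.01, and ends near a ratio of 1.

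Most genes of the origin licensing list were higher on both arrays in each comparison, and they differed widely among themselves. The list also holds Mcm10, Cdc7, Dbf4 and Gins1, which act after the helicase is loaded. In G1KO the median log2 ratio of the 12 tested genes was 0.33, with 10 higher on both arrays, 1 lower (Gmnn) and 1 on either side of 0 (Cdt1). In the G2KO-labelled RNA the median of 13 was 0.39, with 12 higher on both arrays. Of all tested probes, 39.8% (G1KO) and 40.7% (G2KO-labelled RNA) were higher on both arrays. None of the genes passed 1.5-fold in G1KO, whereas Mcm2 and Gins1 did so in the G2KO-labelled RNA. Past 1.5-fold higher were 5.04% and 6.28% of all tested probes.

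Mcm2, a subunit of the helicase ring, was the gene with the largest ratio in the G2KO-labelled RNA. Its probe lies at chr6:88849266-88849325 on the minus strand (build mm8, that of the array design), and its place among the exons was not analysed here. The log2 level of Mcm2, its normalised signal in each culture as a mean of both arrays, was 12.37 in the WT of the G1KO pair, 12.65 in G1KO, 11.79 in the WT of the G2KO pair and 12.87 in the G2KO-labelled RNA. The WT of the G2KO pair was thus the lowest of the 4 cultures. On its arrays the log2 ratio of the G2KO-labelled RNA over its WT was 1.08 and 1.06, a 2.1-fold excess, and in G1KO it was 0.30 and 0.26. The other ring subunits moved less. In the G2KO-labelled RNA the mean log2 ratio was 0.36 for Mcm3, 0.39 for Mcm4, 0.02 for Mcm5, 0.10 for Mcm6 and 0.54 for Mcm7. In G1KO the 5 tested subunits of the ring spanned 0.16 for Mcm5 to 0.40 for Mcm7. The subunits of 1 complex thus differed by up to 1.05 on the log2 scale in the G2KO-labelled RNA, and by 0.24 in G1KO.

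Gins1, a subunit of the GINS complex that travels with the helicase, had log2 levels of 11.95 and 12.30 in the WT and the knockout of the G1KO pair, and of 11.45 and 12.25 in those of the G2KO pair. Its log2 ratio was 0.31 and 0.38 on the arrays of G1KO and 0.74 and 0.86 on those of the G2KO-labelled RNA. A second, dimmer probe of Gins1 gave 0.84 and 0.89 in the G2KO-labelled RNA. The kinase Cdc7 had the highest ratio of the licensing list in G1KO, 0.56 ± 0.20, and 0.21 ± 0.20 in the G2KO-labelled RNA. Its 2 dimmer probes gave 0.40 and 0.18 in G1KO, so that its rank rests on the brightest probe, and 0.07 and -0.01 in the G2KO-labelled RNA. Its activator Dbf4 had 0.31 ± 0.04 and 0.04 ± 0.02. A much dimmer probe of Dbf4 gave 0.14 in G1KO and 0.17 in the G2KO-labelled RNA. Another dim probe gave 0.01 in G1KO and was not tested in the G2KO-labelled RNA. For both partners the ratio at the brightest probe was larger in G1KO, a difference that was not tested.

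The licensing factor Cdt1 and its inhibitor Gmnn (geminin, which binds Cdt1 and blocks relicensing after S phase has begun) did not follow the rest in G1KO. Cdt1 had log2 ratios of -0.10 and 0.13 on the arrays of G1KO and of 0.30 and 0.65 on those of the G2KO-labelled RNA. Gmnn was the lowest licensing gene in G1KO, with -0.27 and -0.30, and had 0.40 and 0.44 in the G2KO-labelled RNA. Its log2 levels were 15.06 and 14.77 in the WT and the knockout of the G1KO pair, and 14.40 and 14.82 in those of the G2KO pair. The highest and the lowest level of Gmnn were therefore those of the WT cultures, with both knockouts between them. The remaining factors Cdc6 (0.36 and 0.12 in G1KO and in the G2KO-labelled RNA) and Mcm10 (0.39 and 0.59) were higher on every array. A dimmer probe of Cdc6 gave 0.30 and 0.40.

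The 15 genes of polymerases, clamp, clamp loader and flap processing had median log2 ratios of 0.30 (G1KO) and 0.35 (G2KO-labelled RNA). Of them, 12 were higher on both arrays in G1KO and 2 lower, against 39.8% and 40.8% of all tested probes. In the G2KO-labelled RNA, 10 were higher on both arrays and none lower, against 40.7% and 42.7%.

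The subunits of DNA polymerase alpha and its primase, which start each new strand with a short primer, moved in different ways. Pola1, the catalytic subunit of the polymerase, was the highest gene of this role in G1KO. Its probe lies at chrX:89557569-89557628 on the minus strand (mm8). Its log2 level was 12.15 in the WT of the G1KO pair and 13.07 in G1KO, against 12.62 in the WT of the G2KO pair and 12.76 in the G2KO-labelled RNA. The arrays of G1KO gave log2 ratios of 0.93 and 0.92, a 1.89-fold excess, and those of the G2KO-labelled RNA gave 0.16 and 0.13. The level in G1KO was the highest and that in its WT the lowest of the 4 cultures. Pola1 is the single X-linked gene among the members. Of 847 tested X-linked probes, 9.68% passed 1.5-fold higher in G1KO, and their median log2 ratio was 0.09. Of 857 in the G2KO-labelled RNA, where Xist was also high, 4.9% passed, and the median was -0.10. The role of the X chromosome in the Pola1 ratio was not tested.

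Prim1, the catalytic subunit of primase, was instead high in the G2KO-labelled RNA. Its log2 levels were 13.51 in the WT of the G1KO pair, 13.38 in G1KO, 13.04 in the WT of the G2KO pair and 14.00 in the G2KO-labelled RNA. The log2 ratio was -0.25 and -0.02 on the arrays of G1KO and 0.92 and 1.0 on those of the G2KO-labelled RNA, a 1.95-fold excess. Its partner Prim2 had the lowest ratio of this role in G1KO, with -0.21 and -0.18, and 0.53 and 0.58 in the G2KO-labelled RNA. The log2 level of Prim2 was 12.87 and 12.68 in the WT and the knockout of the G1KO pair, and 11.53 and 12.08 in those of the G2KO pair. The lowest level was that of the WT of the G2KO pair, and the G2KO-labelled RNA stayed below both cultures of the G1KO pair. Pola2, the accessory subunit of the same complex and a gene outside the 39, named after its values were seen, stood at 0.39 (G1KO) and 0.52 (G2KO-labelled RNA) on the log2 scale.

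The enzymes that finish the lagging strand were higher in the G2KO-labelled RNA. Pold1 is the catalytic subunit of polymerase delta, Fen1 cuts the flap of displaced primer, and Lig1 seals the nick that remains. For Pold1 the log2 levels were 11.91 and 12.22 in the WT and knockout of the G1KO pair and 11.63 and 12.31 in those of the G2KO pair, with log2 ratios of 0.33 and 0.29 in G1KO and of 0.70 and 0.65 in the G2KO-labelled RNA. For Fen1 they were 11.71, 11.81, 10.85 and 11.49 in the same order, with log2 ratios of 0.06 and 0.15 in G1KO and of 0.64 and 0.63 in the G2KO-labelled RNA. For Lig1 they were 12.99, 13.59, 13.14 and 13.87, with log2 ratios of 0.50 and 0.70 in G1KO and of 0.59 and 0.87 in the G2KO-labelled RNA. Lig1 was thus near the 1.5-fold limit in both comparisons, Fen1 in the G2KO-labelled RNA alone. Both cultures of the G2KO pair lay below both cultures of the G1KO pair for Fen1, so the G2KO-labelled RNA was high against its own WT only. Pole, the catalytic subunit of polymerase epsilon on the leading strand, had mean ratios (log2) of 0.48 ± 0.10 in G1KO and 0.00 ± 0.11 in the G2KO-labelled RNA. A much dimmer probe of Pole gave -0.14 in G1KO.

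Replication protein A coats single-stranded DNA as a trimer of Rpa1, Rpa2 and Rpa3. Rpa3 passed 1.5-fold in the G2KO-labelled RNA, with log2 levels of 11.61 in the WT and 12.26 in the knockout RNA and log2 ratios of 0.60 and 0.70. In G1KO its levels were 11.60 and 11.90, and its log2 ratios 0.29 and 0.31. Rpa2 had mean log2 ratios of 0.36 (G1KO) and 0.13 (G2KO-labelled RNA). Rpa1, the largest subunit and not among the 39 genes, had -0.30 ± 0.01 in G1KO and 0.77 ± 0.01 in the G2KO-labelled RNA. All 3 subunits were higher in the G2KO-labelled RNA, and in G1KO Rpa1 lay on the other side of 0 from its partners.

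The clamp and its loader differed between the arrays of a pair. Pcna, the sliding clamp, had log2 ratios of 0.22 and -0.12 on the arrays of G1KO and of 0.57 and 0.13 on those of the G2KO-labelled RNA. The 5 subunits of the loader had a median of 0.25 in G1KO, where each was higher on both arrays. In the G2KO-labelled RNA the median was 0.04, and only Rfc4 (0.55 and 0.44) was higher on both. Of all tested probes, 39.8% and 40.7% were higher on both arrays in the same order. Rfc1, the largest subunit, had -0.42 and 0.04 in the G2KO-labelled RNA and was the lowest of its role, after 0.21 and 0.65 in G1KO. Between the 2 arrays of a pair Rfc1 thus differed by -0.44 in G1KO and by -0.46 in the G2KO-labelled RNA. Over 36 genes these differences between arrays ran in parallel in the 2 comparisons, with a Pearson r of 0.91 and a Spearman rho of 0.90 across genes, although the comparisons share no RNA. The points share the 4 arrays of 1 slide and the same probes, and genes are not independent replicates. Past 0.3 in size were 7 genes, all with the same sign in both comparisons. The ± value of a gene thus holds a difference between the dyes that recurred in both comparisons and that the mean over swapped arrays balances.

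The enzymes of nucleotide synthesis lay on both sides of the WT in G1KO and above it in the G2KO-labelled RNA. Of 5 genes, 3 were higher on both arrays in G1KO, against 39.8% of all tested probes, with a median log2 ratio of 0.10. All 5 were higher on both arrays in the G2KO-labelled RNA, against 40.7% of all tested probes, with a median of 0.55.

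Tk1, the thymidine kinase that salvages thymidine for DNA synthesis, had nearly the same ratio in both comparisons. Its log2 levels were 12.76 in the WT of the G1KO pair, 13.46 in G1KO, 12.80 in the WT of the G2KO pair and 13.48 in the G2KO-labelled RNA. Both knockout cultures thus lay above both WT cultures. The log2 ratios were 0.70 and 0.69 in G1KO, a 1.62-fold excess, and 0.66 and 0.71 in the G2KO-labelled RNA, a 1.61-fold excess. Its probe lies at chr11:117631881-117631940 on the minus strand (mm8).

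Ribonucleotide reductase, which makes deoxynucleotides from ribonucleotides, needs the large subunit Rrm1 and the small subunit Rrm2, and these moved apart in G1KO. The log2 levels of Rrm1 were 14.64 in the WT of the G1KO pair, 14.09 in G1KO, 13.52 in the WT of the G2KO pair and 14.07 in the G2KO-labelled RNA. The WT cultures stood at both ends, and the knockout cultures were 0.02 apart. The log2 ratio of Rrm1 was -0.67 and -0.42 in G1KO, the lowest of all members, and 0.45 and 0.64 in the G2KO-labelled RNA. For Rrm2 the levels were 12.04, 12.63, 11.77 and 12.50 in the same order, with ratios of 0.70 and 0.49 in G1KO and of 0.78 and 0.67 in the G2KO-labelled RNA. Both knockouts were above both WT cultures for Rrm2. Tyms, which makes thymidylate, had mean log2 ratios of 0.10 (G1KO) and 0.35 (G2KO-labelled RNA), where its other probes gave 0.37 and, at a much dimmer one, -0.07. Dut, which removes dUTP from the nucleotide pool, had 0.09 and 0.12, the smallest of this role in the G2KO-labelled RNA.

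The 4 genes that couple replication to chromatin had median log2 ratios of 0.55 (G1KO) and 0.51 (G2KO-labelled RNA). Uhrf1, which reads half-methylated DNA behind the fork and brings in the maintenance methyltransferase, was the highest of all members in G1KO. Its log2 levels were 12.60 in the WT of the G1KO pair, 13.55 in G1KO, 12.29 in the WT of the G2KO pair and 13.31 in the G2KO-labelled RNA, so that both knockouts exceeded both WT cultures. The log2 ratios were 0.77 and 1.12 in G1KO, a 1.93-fold excess, and 0.88 and 1.15 in the G2KO-labelled RNA, a 2.02-fold excess in the mean. The second probe of Uhrf1 gave 0.86 and 0.93 in G1KO and 0.92 and 0.91 in the G2KO-labelled RNA. The brighter probe lies at chr17:55956943-55957002 on the plus strand (mm8).

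Chromatin assembly factor 1 places new histones on copied DNA through its large subunit Chaf1a and its middle subunit Chaf1b. Chaf1a had mean log2 ratios of 0.62 ± 0.07 (G1KO) and 0.52 ± 0.08 (G2KO-labelled RNA). Chaf1b had 0.08 ± 0.19, the lowest of this role in G1KO, and 0.50 ± 0.21. Slbp, which binds the stem-loop of histone mRNA in S phase, had 0.47 ± 0.01 in G1KO and 0.10 ± 0.02 in the G2KO-labelled RNA, where it was the lowest of the 4.

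Both comparisons together were read over the 36 genes tested in each, which share no culture. Higher on both arrays of both comparisons were 22 of 36 genes (61.1%), against 16.4% of 24150 probes tested in both. This share follows largely from those of each comparison, 77.8% of tested genes in G1KO and 83.8% in the G2KO-labelled RNA. None was lower in both, against 17.1%, and none could be, since no gene was lower on both arrays of the G2KO-labelled RNA. The sizes of the ratios did not run in parallel. Across the 36 genes Pearson's r was -0.01 and Spearman's rho 0.02, given as a description, since the genes share arrays and are not independent. Tk1 and Uhrf1 alone passed 1.5-fold on all 4 arrays, and the share of all probes that did so was not taken. Past 1.5-fold higher in a single comparison were 5.04% of all tested probes in G1KO and 6.28% in the G2KO-labelled RNA. Lower on both arrays of G1KO and higher on both of the G2KO-labelled RNA were Gmnn, Prim1, Prim2 and Rrm1, which is 4 of 36 genes (11.1%) against 17.3% of all probes tested in both. These were all 4 genes lower on both arrays of G1KO. The reverse order, seen in 18.4% of all such probes, was likewise not possible for any gene.

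**Figure D3:**
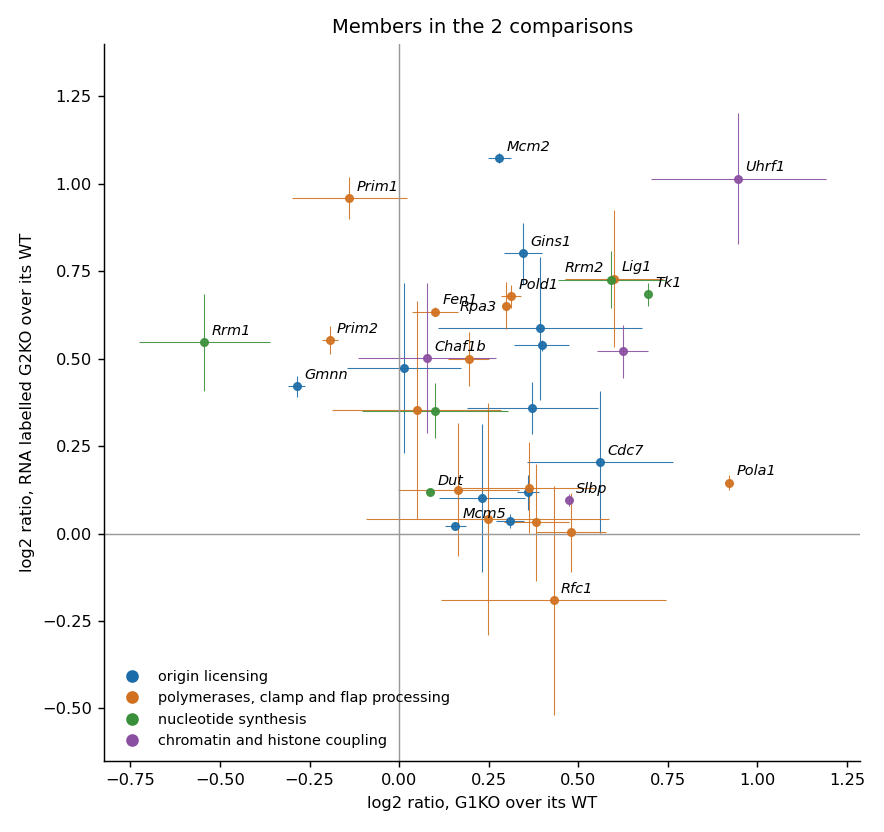
Mean log2 ratio of each gene in G1KO over its WT (x axis) against that in the G2KO-labelled RNA over its WT (y axis), coloured by role, with bars for the SD between the 2 arrays. Uhrf1 and Tk1 lie far from 0 on both axes, Pola1 on the x axis and Mcm2 on the y axis, and Gmnn, Prim1, Prim2 and Rrm1 lie left of 0 and above 0.

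Which culture held the extreme level was read from the channel levels, set on a common scale over the 4 arrays. The lowest of the 4 levels was that of a WT culture for all 36 genes, of the WT of the G2KO pair for 23 and of the WT of the G1KO pair for 13. That it was a WT culture largely follows from the ratios, since a gene above its own WT in both knockouts is lowest in a WT. Over all probes tested in both comparisons each culture was lowest in at least 22.9%. The highest level was that of G1KO for 21 genes (58.3%, against 19.2% of all probes) and of the G2KO-labelled RNA for 11 (30.6%, near the 26.8% of all probes). The WT of the G2KO pair lay below the WT of the G1KO pair by a median of 0.14 on the log2 scale over these genes, while over all probes it lay above by 0.02. The knockouts differed in the same direction, with the G2KO-labelled RNA below G1KO by a median of 0.09. Of the 10 genes past 1.5-fold in the G2KO-labelled RNA, 7 had a lower level in its WT than in the other WT, and Lig1, Rpa3 and Tk1 did not.

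**Figure D4:**
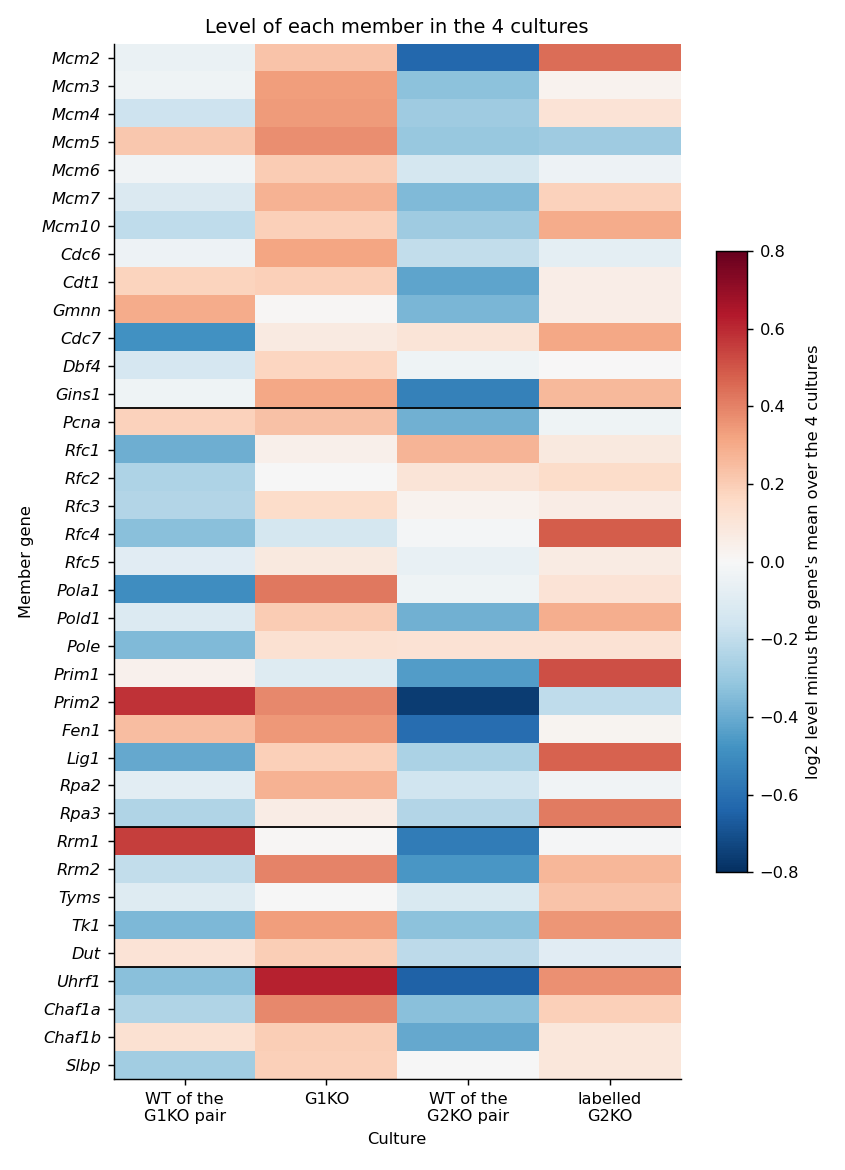
Log2 level of each gene in each of the 4 cultures minus its mean over the 4 (colour, red above and blue below the mean), with black lines between the roles. The blue cells stand mostly in the 2 WT columns, the darkest in the WT of the G2KO pair, and the level of Mcm4 in the G1KO pair comes from 1 array.

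Position in the genome was read after the values were seen. Chromosome 5, which also carries Ccng2, held 10 of the 37 genes, namely Mcm7, Cdc7, Dbf4, Rfc1, Rfc2, Rfc3, Rfc5, Pole, Tyms and Slbp. Their median log2 ratio in the G2KO-labelled RNA was 0.07, from -0.19 for Rfc1 to 0.54 for Mcm7, with 5 of 10 higher on both arrays and none past 1.5-fold. The 27 genes on other chromosomes had a median of 0.52, from 0.02 for Mcm5, with 26 higher on both arrays and 10 past 1.5-fold. Of all tested probes in the G2KO-labelled RNA, 40.7% were higher on both arrays and 6.28% passed 1.5-fold higher. These shares were not taken by chromosome. In G1KO the order was the other way, with medians of 0.39 on chromosome 5 and 0.29 elsewhere. The probes of chromosome 5 as a whole also lay below those elsewhere in the G2KO-labelled RNA. All 1645 tested probes of chromosome 5 had a median log2 ratio of -0.17 there, against 0.00 for the probes elsewhere, and of 0.05 in G1KO. Across 20 chromosomes such medians ran from -0.17 for chromosome 8 to 0.21 for chromosome 6 in the G2KO-labelled RNA. Chromosome 5 was close to the lowest. Chromosome 8 carries Mcm5 and Cdt1, and chromosome 6 carries Mcm2 and Rpa3. In G1KO the medians ran from -0.28 for chromosome 10 to 0.13 for chromosome 3. The part of chromosome position in the ratios of the replication genes was not tested.

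Whether a gene's promoter held E2F-type letters was set beside its ratio. In G1KO the 11 genes with a match had a median log2 ratio of 0.37, from 0.01 for Cdt1 to 0.95 for Uhrf1, and the 20 tested genes with an entry and no match had 0.29, from -0.54 for Rrm1 to 0.69 for Tk1. In the G2KO-labelled RNA the medians were 0.36 with a match and 0.50 without, where Mcm2 was the highest of those without. Mcm6, with 3 matches, had 0.23 and 0.10. The ranges of the genes with and without these letters overlapped in both comparisons.

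Further replication genes, 45 listed apart from the 39, had smaller shifts in G1KO. Their median log2 ratio was 0.15 in G1KO, with 30 higher and 10 lower on both arrays, against 39.8% and 40.8% of all tested probes. The same list had a median of 0.37 in the G2KO-labelled RNA, with 37 higher and 2 lower, against 40.7% and 42.7%. Past 1.5-fold were 1 of 45 higher and 2 lower in G1KO, against 5.04% and 8.05% of all tested probes. In the G2KO-labelled RNA 7 were higher and none lower, against 6.28% and 8.32%. Shmt1, which supplies folate-bound carbon for thymidylate, passed 2-fold in G1KO, with log2 ratios of 1.0 and 1.06. Dna2, a nuclease and helicase that trims long flaps, passed 2-fold in the G2KO-labelled RNA, with 1.23 and 1.32, and had -0.42 and -0.26 in G1KO.

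Regulators of the entry into S phase, 32 listed genes, moved to both sides, with medians of 0.02 and 0.11. Past 2-fold were 2 of 32 higher and 2 lower in G1KO, against 1.99% and 3.8% of all tested probes. In the G2KO-labelled RNA 3 were higher and 3 lower, against 2.31% and 4.06%. Ccnd1, the cyclin D1 that drives cells out of G1, was higher in both, with log2 ratios of 1.13 and 1.13 in G1KO and of 2.31 and 2.29 in the G2KO-labelled RNA. Cdkn2b, an inhibitor of the cyclin D kinases, was lower in both, with means of -1.34 and -5.06. Cdkn2a, which encodes p16 and p19Arf, had means of 0.96 in G1KO and -3.44 in the G2KO-labelled RNA. Cdkn1a, the p53 target p21, had -0.77 in G1KO and 2.75 in the G2KO-labelled RNA, and Cdkn1c, another inhibitor of that family, had 1.39 and -3.25. Rb1, the pocket protein that holds E2F in check, had -0.35 and 2.33. Tfdp2, a partner of E2F in DNA binding, had -1.53 and -0.81. E2f1 itself changed sign with the dye, at 0.67 and -0.03 in G1KO and 0.54 and -0.13 in the G2KO-labelled RNA. The largest ratios of this list thus exceeded those of any of the 39 genes, and Cdkn1a, Cdkn1c and Cdkn2a lay on opposite sides of 0 in the comparisons.

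Genes of mitosis, 28 listed, were set beside the S-phase genes. In G1KO their median log2 ratio was 0.06, with none past 1.5-fold, against 5.04% of all tested probes higher and 8.05% lower. In the G2KO-labelled RNA it was 0.59, with 11 of 28 past 1.5-fold higher and none lower, against 6.28% and 8.32% of all tested probes. Mki67, a mark of cycling cells, had 0.33 ± 0.09 in G1KO and 0.71 ± 0.16 in the G2KO-labelled RNA. The median of the replication genes was 0.31 and 0.42 in the same order. Whether the lists differ was not tested. In the paper's growth curves G1KO and G2KO MEFs grew slower than WT MEFs. How the mRNA levels given here relate to growth was not tested.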

How the data were processed

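MEF RNA was read on 4 Agilent 2-colour arrays, and each dye-swapped pair served as 1 replicate. The authors deposited scanner intensity values per spot and channel (Feature Extraction, 10.5.1.1 per the file headers, 9.1 per the labels), and the scanner's log10 ratio of Cy5 over Cy3. Their deposited series table holds the same log10 ratio turned to knockout over WT. Each array had 43379 gene spots. Its signals were corrected with normexp (offset 50) and normalised by loess in limma 3.58.1 (R 4.3.3), with control spots and spots marked as outliers (114 to 203 per array) left out. Spots of a probe were averaged, and levels were set on a common scale by Aquantile normalisation. Ratios were turned to knockout over WT and averaged over the pair. A probe was tested when its spots passed the scanner's background flag on both arrays in either genotype, and called when both arrays passed the fold in 1 direction. Well above background were 25366 to 27757 gene spots per channel, no spot was saturated, and precision is limited by the number of arrays. All arrays shared 1 slide and 1 scan. The 2-fold call was tested on simulated pairs with larger planted changes and no dye difference particular to a gene. Calls past 1.5-fold, and shifts as small as those of the replication genes, were not simulated. Genes were named by rule: members past 1.5-fold, the highest and lowest of each role, and genes of the other replication and regulator lists past 2-fold, beside a few fixed ones. Members and lists were chosen with earlier results of these data known. Alternatives were 9, given at the end. The deposited p-value of each spot's ratio was not used.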

Additional observations from a re-analysis of the deposited data

Results flagged for a closer look

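For 4 of 36 replication genes the arrays of the 2 comparisons lay on opposite sides of 0, lower than the WT on both arrays of G1KO and higher on both arrays of the G2KO-labelled RNA. The log2 ratio in the G2KO-labelled RNA minus that in G1KO was 0.71 for Gmnn, 1.099 for Prim1, 0.75 for Prim2 and 1.09 for Rrm1. The difference was not tested, since each comparison had 1 culture per genotype. Among all 24150 probes tested in both comparisons, 17.3% had this order, against 11.1% of the replication genes. The 4 genes were all of those lower on both arrays of G1KO. For Prim1 the ratio on 1 array of G1KO was -0.02, close to 0.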

How the results depend on the processing

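The 9 alternatives kept the median of the genes above 0 in both comparisons. Dropping the filter on dim probes, or asking for both genotypes above background, could not change the value of any named gene. Since each tested member was well above background in all cultures, the counts could not change by these settings either. The mean of all detected probes left the 23 members with 1 probe as they were. With the scanner's own log ratio and with the series table, which hold the same values, the median in G1KO was 0.39 and 0.39, against 0.31 with loess, and with median centring in place of loess that of the G2KO-labelled RNA was 0.57, against 0.42. Median centring left 0 genes past 1.5-fold on both arrays in G1KO and 0 in the G2KO-labelled RNA, where 0 passed 2-fold, since the arrays of a pair then lay apart by dye. Read on the array with the knockout RNA in Cy5 alone, 5 genes passed 1.5-fold in G1KO, 1 of them lower. On the array with the knockout RNA in Cy3 alone, 8 genes passed 1.5-fold and 1 passed 2-fold in G1KO, and 3 passed 2-fold in the G2KO-labelled RNA, against 3, 0 and 1 on both arrays. A single array asks less than both, and no share over all probes was taken for a single array. The other counts of calls stayed within 1.5 times the values given. Of 612 values of named genes recomputed under the alternatives, including those that could not change, 5 changed sign. All 5 were on a single array. In G1KO they were Chaf1b (-0.06) and E2f1 (-0.03), and in the G2KO-labelled RNA Rfc1 (0.04), Ccng2 (-0.10) and E2f1 (-0.13). None of these genes was called. No paired analysis was possible because each group has a single replicate, given on 2 arrays of the same RNAs. Leaving out a culture would leave no comparison.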
